A study of Mus musculus with 10 samples.

Results

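The genes described here are 8 members of 3 families of synaptic adhesion molecules, the neurexins Nrxn2 and Nrxn3, the neuroligins Nlgn1 and Nlgn3, and the leucine-rich repeat transmembrane proteins Lrrtm1, Lrrtm2, Lrrtm3 and Lrrtm4. They were listed by name, with earlier results of these data known, and matched to the gene table by Ensembl identifier. They are 8 of 22255 genes in the gene table, and 61 of 102392 entries in the transcript table belong to them. Other members of these families were not analysed here.

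RNA was measured in hippocampal synaptoneurosomes of wild-type C57Bl/6J mice, a fraction enriched in synaptic terminals that close up again during preparation. One group received AM6545, an antagonist of the cannabinoid receptor CB1 that enters the brain poorly, and the other received vehicle, both by sub-chronic administration, with 5 libraries in each group. The labels give no dose, age, sex or duration, and do not say whether a library came from a single animal, so the p-values measure the spread between these libraries, which may be technical. The comparison asks which synaptic RNAs differ after sub-chronic AM6545.

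Neurexins sit in the presynaptic membrane and bind neuroligins and LRRTMs across the cleft. Each neurexin gene makes a long alpha form and a short beta form from separate promoters, and both forms can carry or lack a small exon at splice site 4. That exon steers the choice of partner, since LRRTM1 and LRRTM2 bind forms without it while cerebellins bind forms with it. Neuroligins carry optional inserts of their own, A and B, and insert B of neuroligin 1 weakens binding to alpha neurexins. LRRTM3 and LRRTM4 bind the heparan sulfate chains on neurexins and glypicans. LRRTM1 and LRRTM2 are best known as organizers of excitatory synapses in the hippocampus, where neuroligin 1 also acts, while neuroligin 3 is found at both excitatory and inhibitory synapses.

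The alternative exons on which the isoform results rest are shown first, because inclusion or skipping of each defines a class of transcripts. The exon at splice site 4 of Nrxn3 has 90 bases and lies at chr12:90199147-90199236 on the plus strand. Positions and sequences are those of GRCm38 in the GENCODE M21 annotation, 5′ to 3′ on the gene's strand.
Nrxn3 splice site 4 exon: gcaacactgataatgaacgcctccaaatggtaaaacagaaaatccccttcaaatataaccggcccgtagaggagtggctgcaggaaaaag

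Insert A is a 60-base exon. Nlgn1 has a single such exon, at chr3:25920178-25920237 on the minus strand, and Nlgn3 has a pair in tandem, at chrX:101303072-101303131 and chrX:101307075-101307134 on the plus strand. The downstream exon of Nlgn3 is the counterpart of the Nlgn1 exon, with 43 of 60 bases identical, or 71.7%, against 16 of 60, or 26.7%, for the upstream exon. Capitals mark the bases that differ between the Nlgn1 exon and the downstream Nlgn3 exon.
Nlgn1 insert A exon: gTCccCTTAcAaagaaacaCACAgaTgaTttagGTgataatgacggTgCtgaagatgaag
Nlgn3 upstream insert A exon: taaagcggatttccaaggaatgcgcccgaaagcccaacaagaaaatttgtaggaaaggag
Nlgn3 downstream insert A exon: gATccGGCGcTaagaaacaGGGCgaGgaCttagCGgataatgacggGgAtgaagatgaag

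Insert B of Nlgn1 is shown because it was counted together with insert A. In the annotation it is a 27-base extension of an exon, at chr3:25439865-25439891 on the minus strand.
Nlgn1 insert B: gtaaccgttggagcaattcaaccaaag

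The positions of the genes in GRCm38 show which of them share ground with other genes. Nrxn2 (ENSMUSG00000033768) spans chr19:6418731-6544169 on the plus strand and Nrxn3 (ENSMUSG00000066392) spans chr12:88722876-90334935 on the plus strand. Nlgn1 (ENSMUSG00000063887) spans chr3:25426215-26332460 on the minus strand and Nlgn3 (ENSMUSG00000031302) spans chrX:101299168-101325963 on the plus strand. Lrrtm1 (ENSMUSG00000060780) spans chr6:77242689-77257791 on the plus strand and Lrrtm4 (ENSMUSG00000052581) spans chr6:80018877-80810143 on the plus strand. Lrrtm2 (ENSMUSG00000071862) spans chr18:35209003-35215024 and Lrrtm3 (ENSMUSG00000042846) spans chr10:63928472-64090277, both on the minus strand. Lrrtm1, Lrrtm2 and Lrrtm3 each lie inside an alpha-catenin gene on the opposite strand, Ctnna2, Ctnna1 and Ctnna3 in that order. Exons of Lrrtm2 overlap those of Ctnna1, and exons of Nrxn2 overlap those of Gm14964 and Slc22a12. Exons of Nrxn3, Nlgn1, Nlgn3 and Lrrtm4 overlap those of Gm37980, A830092H15Rik, Gm21986 and Gm4409, in that order. Gm21986 lies on the same strand as Nlgn3 and the other overlapping genes on the opposite strand. The use of strand in counting is not given in the sources used here, so reads from opposite-strand overlaps cannot be told apart, and strand would not separate the overlap of Nlgn3 with Gm21986.

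Library totals ran from 18106112 to 25899794 estimated counts, at which 3 counts, the upper limit that a count of 0 allows, correspond to 0.116 to 0.166 CPM, the count scaled to the size of the library. This limit covers counting error only. All 8 genes were far above it, from 245.75 counts for Nrxn2 to 6284.5 for Lrrtm1. Vehicle replicate 1 stood apart, as it held the lowest of the 10 values for 23.5% of all tested genes and the highest for 25.1%, where an even split would give 10% each. Markers of excitatory neurons summed to 2008 to 2454 CPM in vehicle and 2189 to 2453 CPM in AM6545 libraries, with all 5 listed markers present. Markers of other cell types were also present, with oligodendrocyte markers at 11748 to 16977 CPM in vehicle and 10030 to 21902 CPM in AM6545 libraries. Choroid plexus markers ran from 58.2 to 4872 CPM in vehicle and from 628 to 3882 CPM in AM6545 libraries. No listed marker of these 3 cell types was at 0 and none passed the test between groups. In such bulk RNA, fewer compartments of a type and less RNA in each cannot be told apart.

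None of the 8 genes passed the test between AM6545 and vehicle. With edgeR's quasi-likelihood test and Benjamini-Hochberg adjustment over 14358 genes, 0 of 8 had an adjusted p under 0.05, against 0% of all genes tested, and the adjusted p was 0.99983 for each of the 8. At an unadjusted p under 0.05 the count was also 0 of 8, where 1.14% of all genes were higher in AM6545 and 0.738% lower. That background, 270 genes in all, moved between 165 (without AM6545 replicate 4) and 578 (without vehicle replicate 2) when 1 library was left out, with 504 without AM6545 replicate 3 and 414 without vehicle replicate 4. It was 433 with no filter and 706 with limma-voom. The groups overlapped for every member, while for 0.174% of all genes the whole AM6545 group was above the vehicle group and for 0.118% below it. The 8 log2 fold changes ran from -0.12 to 0.041 with a median of -0.027, and 2 of 8 were above 0, against 48.1% of all genes. Over all genes the median was -0.0057, with 5th and 95th percentiles of -0.26 and 0.24. The 95% intervals of the fold change of all 8 genes lay between 0.795 and 1.20, unadjusted for the number of genes. DESeq2 and limma-voom also called 0 of 8.

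**Figure D1:**
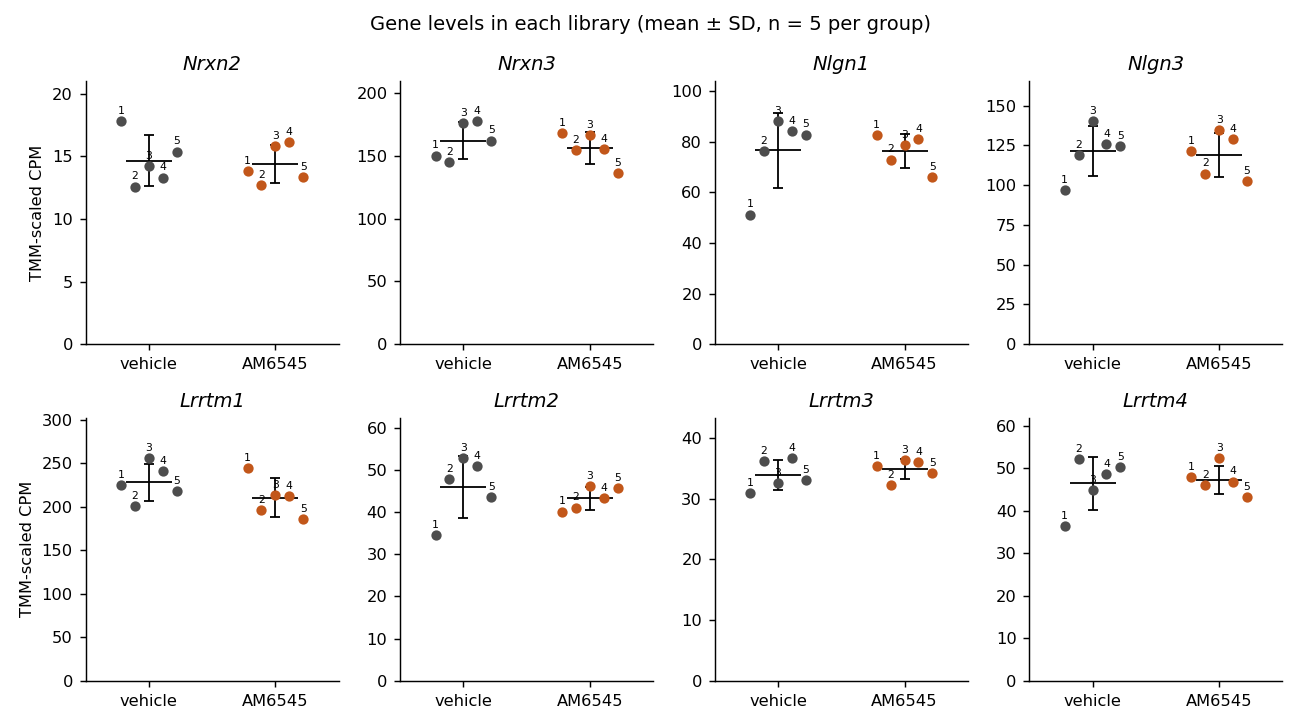
TMM-scaled CPM of each of the 8 genes in each library, with points numbered by replicate, horizontal marks for the group mean and bars for the SD (n = 5 per group). In every panel the AM6545 and vehicle points overlap, and vehicle replicate 1 is the lowest point for Nlgn1 (51.2 CPM), Nlgn3, Lrrtm2, Lrrtm3 and Lrrtm4.

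Among the presynaptic neurexins, Nrxn2 stood at 17.8, 12.6, 14.2, 13.3 and 15.4 CPM in vehicle replicates 1 to 5. In AM6545 replicates 1 to 5 it stood at 13.8, 12.7, 15.8, 16.2 and 13.4 CPM. Both the highest and the lowest of the 10 values were vehicle libraries, replicates 1 and 2, and the AM6545 values lay between them. The group means were 14.7 ± 2.05 CPM in vehicle and 14.4 ± 1.54 CPM in AM6545 (SD, n = 5 each), and the log2 fold change was -0.028 (SE 0.12).

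Nrxn3 was measured at 150, 145, 176, 178 and 162 CPM in vehicle replicates 1 to 5 and at 168, 154, 166, 156 and 136 CPM in AM6545 replicates 1 to 5. AM6545 replicate 5 was the lowest of the 10, and the other 4 AM6545 libraries lay within the vehicle range. The means were 162 ± 14.7 and 156 ± 12.7 CPM (SD, n = 5 each), and the log2 fold change was -0.055 (SE 0.096).

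Of the postsynaptic neuroligins, Nlgn1 was read at 51.2, 76.4, 88.2, 84.3 and 82.8 CPM in vehicle replicates 1 to 5. AM6545 replicates 1 to 5 gave 82.8, 72.9, 78.6, 81.0 and 66.1 CPM. All AM6545 values fell between the lowest and the highest vehicle library. The mean was 76.6 ± 14.8 CPM in vehicle and 76.3 ± 6.80 CPM in AM6545 (SD, n = 5 each), and the log2 fold change was -0.0059 (SE 0.13). Vehicle replicate 1 was the lowest of the 10, and the other 4 vehicle libraries were at 76.4 CPM or above.

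Nlgn3 reached 96.9, 119, 140, 126 and 125 CPM in vehicle replicates 1 to 5 and 121, 107, 135, 129 and 102 CPM in AM6545 replicates 1 to 5. Again every AM6545 value lay inside the vehicle range. Means of 121 ± 15.8 and 119 ± 13.9 CPM (SD, n = 5 each) corresponded to a log2 fold change of -0.027 (SE 0.11).

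Among the LRRTMs, Lrrtm1 had 225, 201, 256, 241 and 218 CPM in vehicle replicates 1 to 5 and 244, 197, 213, 213 and 186 CPM in AM6545 replicates 1 to 5. AM6545 replicates 2 and 5 lay below every vehicle library, and the other 3 lay within the vehicle range. The means were 229 ± 21.3 and 211 ± 22.1 CPM (SD, n = 5 each). The log2 fold change was -0.12 (SE 0.10), with a 95% interval of the fold of 0.795 to 1.07.

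Lrrtm2, like Lrrtm1 a ligand of neurexins without the splice site 4 exon, was at 34.5, 47.7, 52.8, 51.0 and 43.6 CPM in vehicle replicates 1 to 5. It was at 40.1, 41.0, 46.2, 43.3 and 45.6 CPM in AM6545 replicates 1 to 5, all within the vehicle range. The means of 45.9 ± 7.30 and 43.2 ± 2.68 CPM (SD, n = 5 each) gave a log2 fold change of -0.087 (SE 0.11).

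Lrrtm3 and Lrrtm4 were the only members with a log2 fold change above 0, in each case smaller than its SE. Lrrtm3 had 31.0, 36.2, 32.5, 36.7 and 33.1 CPM in vehicle replicates 1 to 5 and 35.4, 32.3, 36.3, 36.0 and 34.3 CPM in AM6545 replicates 1 to 5, so that all AM6545 libraries lay inside the vehicle range. Its means were 33.9 ± 2.47 and 34.9 ± 1.66 CPM (SD, n = 5 each), and the log2 fold change was 0.041 (SE 0.089). Lrrtm4 had 36.5, 52.1, 44.9, 48.7 and 50.2 CPM in vehicle replicates 1 to 5 and 47.9, 46.0, 52.5, 46.9 and 43.3 CPM in AM6545 replicates 1 to 5. AM6545 replicate 3 was just above the highest vehicle library. Its means were 46.5 ± 6.20 and 47.3 ± 3.36 CPM (SD, n = 5 each), and the log2 fold change was 0.025 (SE 0.11).

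Vehicle replicate 1 was the lowest of the 10 libraries for 5 of the 8 genes, Nlgn1, Nlgn3, Lrrtm2, Lrrtm3 and Lrrtm4, and the highest for Nrxn2. That library also had the lowest summed markers of excitatory neurons (2008 CPM) and astrocytes (1083 CPM) and the highest of choroid plexus (4872 CPM). The part of these in the gene values was not tested. Without vehicle replicate 1 the log2 fold change became 0.052 for Nrxn2, -0.12 for Nlgn1, -0.17 for Lrrtm2 and -0.051 for Lrrtm4, and the adjusted p stayed at 0.9994 (edgeR's quasi-likelihood test). Nrxn2 and Lrrtm4 thus changed sign.

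The members differed in how tightly they were held among libraries of a group. The SD of log2 CPM within groups was 0.244 for Nlgn1, above 83.9% of the 2020 genes of similar level. This value was carried by vehicle replicate 1, and without that library it was 0.115, above 27.4% of 1995 genes, an alternative chosen after seeing the data. For Lrrtm3 it was 0.0887, above only 3.26% of the 2515 genes of similar level, and 0.0783 without vehicle replicate 1. The other 6 members lay between 0.126 and 0.185.

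**Figure D2:**
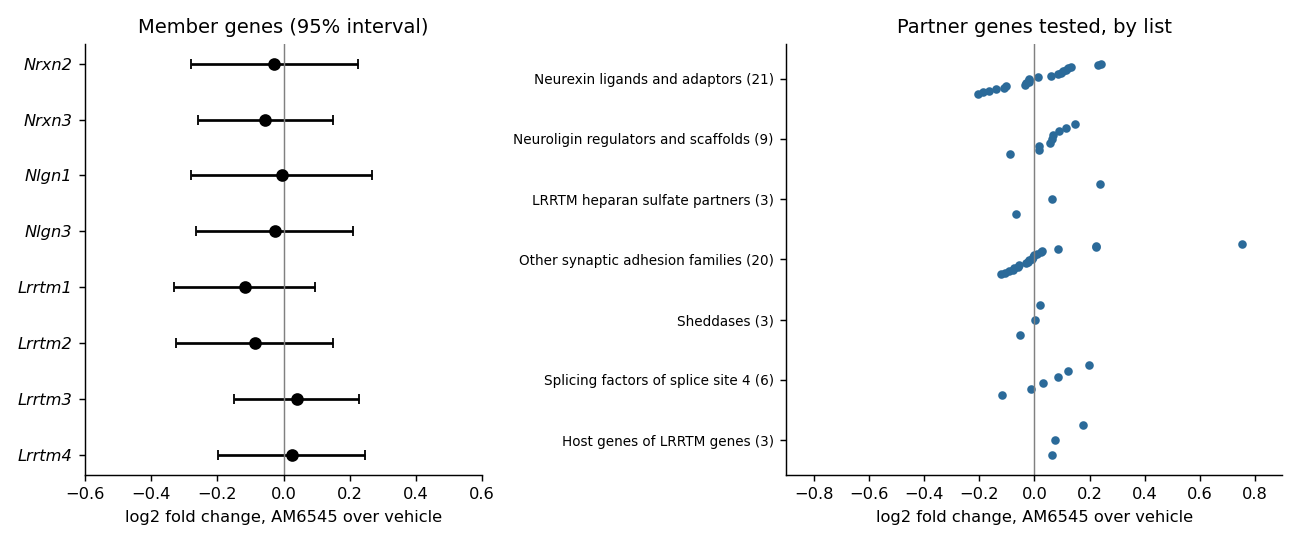
Log2 fold change of AM6545 over vehicle for the 8 genes with 95% intervals (left) and for tested partner genes grouped by list (right, points only, number of genes in parentheses). Every interval on the left includes 0, and the far right point among the other adhesion families is Ntng2 (0.75, SE 0.39). That gene had few reads, 3 to 20 estimated counts in a library.

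To compare levels between genes, TPM, a level corrected for transcript length and library size, was computed from the estimated counts. Lrrtm1 had the highest level, 166 TPM on average over the 10 libraries (range 145 to 191), in the 93.0th percentile of 15213 genes seen in every library. Nrxn3 followed at 47.5 TPM (37.1 to 51.9) and was below Lrrtm1 in all 10 libraries with no overlap of the ranges. Nlgn3 came next at 33.3 TPM (21.6 to 37.8), then Lrrtm4 at 28.3 TPM (19.1 to 34.5) and Nlgn1 at 26.6 TPM (12.7 to 31.1). The lowest were Lrrtm3 at 18.1 TPM (14.2 to 21.2), Lrrtm2 at 17.6 TPM (11.6 to 21.7) and Nrxn2 at 12.9 TPM (8.57 to 18.7), the last near the middle of all genes at the 49.7th percentile. A large part of the Nrxn2 level came from Nrxn2-213, a transcript of 576 bases without a coding sequence, as TPM gives short transcripts more weight. Nrxn2-213 held 93.4 estimated counts in vehicle replicate 1, where Nrxn2 TPM was highest, and 13.2 in vehicle replicate 2, where Nrxn2 TPM was lowest.

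Below Lrrtm1, the ranges of neighbours in this order overlapped over the 10 libraries. For Nrxn3 and Nlgn3, and for Nlgn1 and Lrrtm3, the overlap rested on vehicle replicate 1. Without it Nrxn3 was at 43.2 TPM or above against 37.8 TPM or below for Nlgn3, and Nlgn1 at 24.6 TPM or above against 21.2 TPM or below for Lrrtm3. Within libraries, Nrxn3 exceeded Nlgn3 and Nlgn3 exceeded Lrrtm4 in 10 of 10, Lrrtm4 exceeded Nlgn1 in 8 of 10 and Nlgn1 exceeded Lrrtm3 in 9 of 10. Lrrtm3 exceeded Lrrtm2 in 5 of 10, so these had no order, and Lrrtm2 exceeded Nrxn2 in 8 of 10. The level of Nlgn3 includes Nlgn3-203, a transcript of 1852 bases cut short at its 3′ end, to which TPM gives more weight for its length. Nlgn3-203 held 54.2 to 226 estimated counts in a library. Whether Nlgn3 exceeds Lrrtm4 without this transcript was not tested. The Nrxn3 transcripts in the annotation summed to up to 6.41% less than the gene's own count in a library, and its TPM leaves those counts out. How much this lowers the TPM depends on the lengths of the transcripts left out, which are not known. The transcript sums of the other 7 genes equalled the gene counts.

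**Figure D3:**
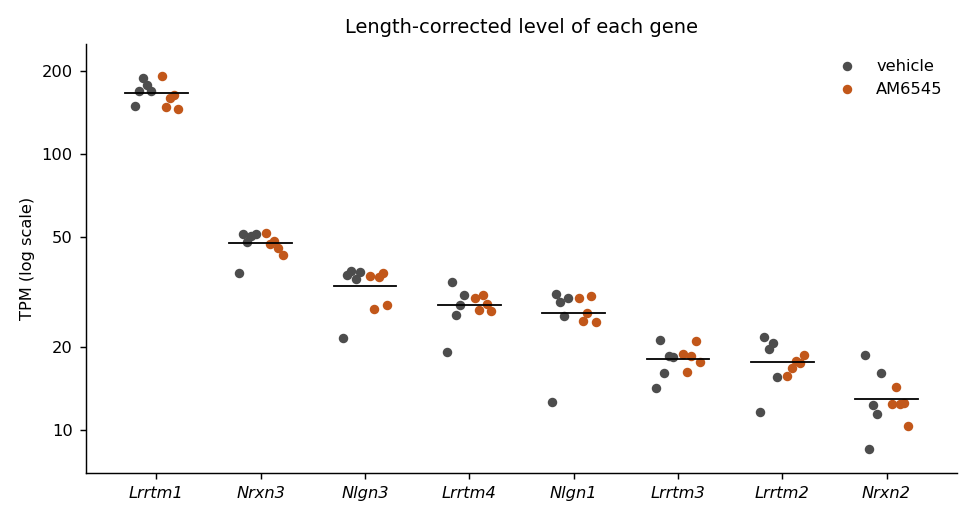
TPM of each gene on a log axis, with a point for each of the 5 vehicle and 5 AM6545 libraries and a line at the mean of all 10. Lrrtm1 lies between 145 and 191 TPM, clear of the other 7 genes, whose ranges over all 10 libraries overlap with their neighbours.

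Transcripts of the 8 genes did not pass the test either. Of 61 listed, 30 passed the filter on low counts, and 0 of 30 had an adjusted p under 0.05 by edgeR's quasi-likelihood test, against 0.00314% of 31848 transcripts tested. At an unadjusted p under 0.05 the count was 0 of 30, where 1.1% of all transcripts were higher and 0.873% lower in AM6545. In 0 of 30 were the groups apart, against 0.295% of all transcripts with AM6545 above and 0.279% with AM6545 below. Of the 30 log2 fold changes, 11 were positive, where 49.5% of all transcripts tested were. The median of the 30 was -0.025, against -0.0025 over all transcripts. Their range was -0.83 to 0.70, and the transcripts at both ends were at 0 counts in some libraries.

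The alpha transcript Nrxn3-205 had the highest CPM of the neurexin transcripts, at 110 ± 11.1 CPM in vehicle libraries and 105 ± 8.56 CPM after AM6545 (SD, n = 5 each), and the log2 fold change was -0.064 (SE 0.091). Nrxn3-208, which has the same coding start and is annotated as a target of nonsense-mediated decay, was at 15.3 ± 1.28 and 15.1 ± 2.22 CPM. In Nrxn2 the leading transcripts were the beta form Nrxn2-202, at 4.91 ± 0.414 and 5.33 ± 0.899 CPM, and the alpha form Nrxn2-204, at 3.74 ± 0.899 and 3.17 ± 0.854 CPM. Their log2 fold changes were 0.12 (SE 0.16) and -0.24 (SE 0.26).

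Among the partners on the postsynaptic side, Nlgn1-205 was at 37.7 ± 6.51 and 34.3 ± 5.78 CPM, and Nlgn1-201 at 16.7 ± 8.63 and 16.6 ± 5.85 CPM, in vehicle and AM6545. Nlgn3-201 was at 95.5 ± 19.96 and 97.4 ± 8.72 CPM and Nlgn3-206 at 15.2 ± 5.34 and 14.3 ± 6.30 CPM. Lrrtm1-202, at 150 ± 16.3 and 133 ± 16.6 CPM, had a log2 fold change of -0.18 (SE 0.11), while Lrrtm1-203, at 57.4 ± 10.6 and 59.3 ± 10.9 CPM, had one of 0.047 (SE 0.16). Lrrtm2-201 was at 42.3 ± 6.45 and 39.2 ± 2.87 CPM and Lrrtm3-201 at 31.1 ± 2.76 and 33.2 ± 2.10 CPM. Lrrtm4-201 was at 27.9 ± 4.45 and 27.8 ± 2.72 CPM and Lrrtm4-208 at 16.8 ± 2.83 and 17.1 ± 3.43 CPM. The lesser transcripts Lrrtm2-203 and Lrrtm3-204 were at 0 in some libraries, and their log2 fold changes of -0.052 (SE 0.89) and -0.83 (SE 1.2) carried wide errors. That of Lrrtm3-204 moved to -1.90 without AM6545 replicate 4, to -0.51 without AM6545 replicate 1 or 5 and to -2.21 with a replicate block.

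Shares of isoform classes were computed per length within each gene. Of Nrxn2, the beta forms made up 46.2, 59.3, 52.2, 54.6 and 51.9% in vehicle replicates 1 to 5 and 46.8, 64.3, 54.7, 53.2 and 64.2% in AM6545 replicates 1 to 5. AM6545 replicates 2 and 5 were above all vehicle libraries. The means were 52.8 ± 4.77% and 56.6 ± 7.58% (SD, n = 5 each), with an exact permutation p of 0.373, two-sided. These classes rested on 71.0 to 93.9% of the gene's counts, as few as 178.7 counts in a library.

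Of Nrxn3, the beta forms made up 20.1, 27.3, 15.0, 22.2 and 24.4% in vehicle replicates 1 to 5 and 24.7, 24.5, 21.95, 17.3 and 28.0% in AM6545 replicates 1 to 5, among alpha and beta forms. The groups overlapped, with means of 21.8 ± 4.66% and 23.3 ± 3.98% (SD, n = 5 each, exact permutation p 0.603). In every library the beta share of Nrxn3 was below that of Nrxn2, with highest Nrxn3 value 28.0% and lowest Nrxn2 value 46.2%. Another class of Nrxn3, with a long coding sequence from another start, held 13.95 ± 1.67% and 13.5 ± 2.80% of the forms that could be classed at splice site 4.

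Inclusion of the splice site 4 exons overlapped between the groups. In Nrxn2 inclusion was 78.4, 80.9, 66.4, 71.0 and 70.1% in vehicle replicates 1 to 5 and 69.4, 83.0, 80.1, 72.1 and 82.2% in AM6545 replicates 1 to 5, with means of 73.3 ± 6.06% and 77.4 ± 6.20% (SD, n = 5 each, exact permutation p 0.270). In Nrxn3 it was 80.4, 73.9, 82.3, 76.6 and 73.7% in vehicle and 76.7, 76.0, 75.8, 77.7 and 76.0% in AM6545 replicates 1 to 5, with means of 77.4 ± 3.83% and 76.5 ± 0.805% (SD, n = 5 each, exact permutation p 0.564). The only classed Nrxn3 transcripts that skip the exon are the beta form Nrxn3-203 and Nrxn3-213, which has another start. The Nrxn3 share and its test thus follow the amounts of these forms and cannot show a change of inclusion within alpha forms.

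Inclusion within beta forms differed widely between the genes. In Nrxn2 beta it ran from 89.0 to 100% over the 10 libraries, with means of 96.9 ± 2.94% in vehicle and 95.5 ± 4.58% in AM6545. In Nrxn3 beta it ran from 8.03 to 31.6%, with means of 17.1 ± 7.37% and 21.03 ± 9.24%, on 163.9 to 400.8 beta counts in a library. Within Nrxn2 alpha it ran from 34.9 to 62.4%. These values rest on the annotation, in which the beta transcripts that carry and lack the exon also end differently, and no transcript with the alpha start of Nrxn3 lacks the exon, so that its inclusion in Nrxn3 alpha is 100% by construction.

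**Figure D4:**
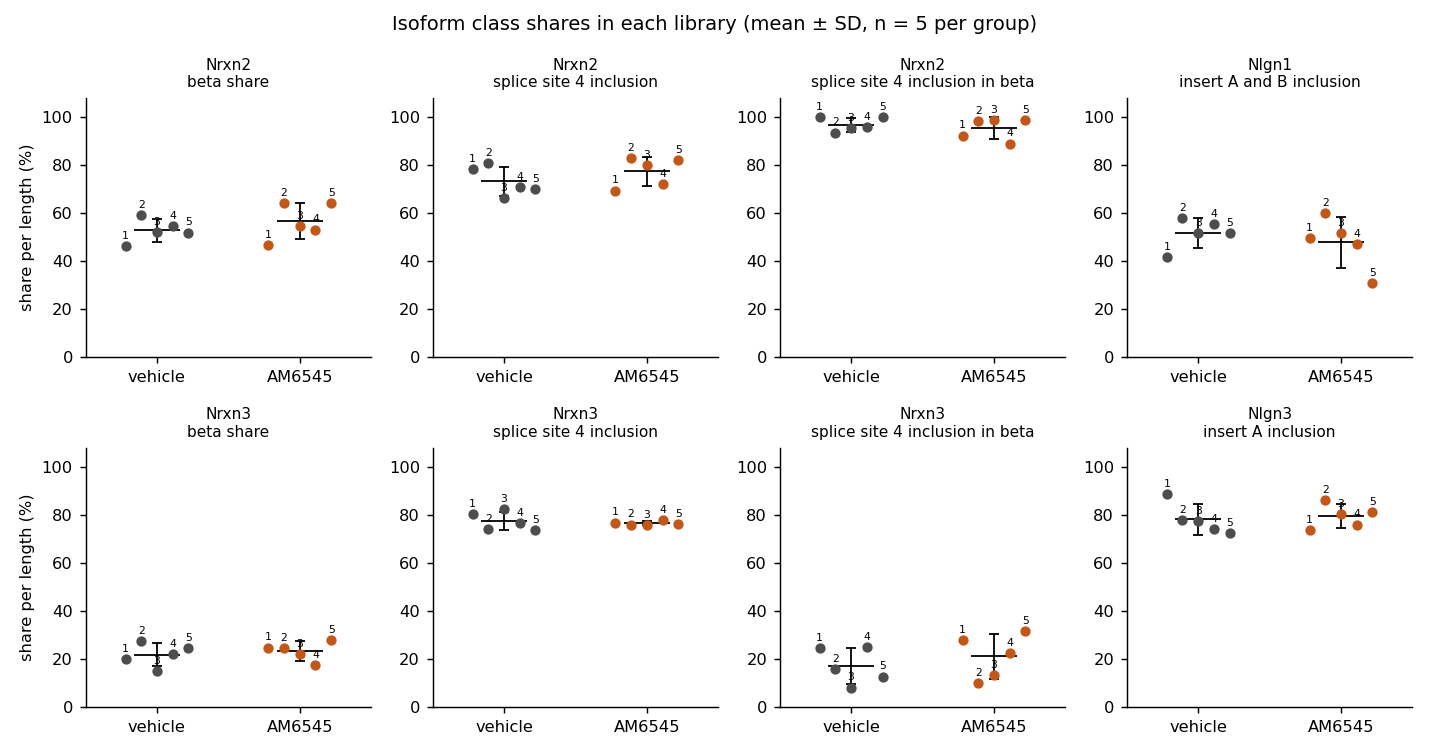
Share per length of each isoform class in each library, in percent, with points numbered by replicate, marks at the group mean and bars for the SD (n = 5 per group). AM6545 and vehicle points overlap in every panel, while inclusion of the splice site 4 exon in beta forms lies at 89.0% or more in Nrxn2 and at 31.6% or less in Nrxn3.

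Insert A and insert B of Nlgn1 occur together in every annotated transcript that could be classed, so they were counted as a pair. The pair was included in 41.6, 57.9, 51.7, 55.5 and 51.9% of Nlgn1 in vehicle replicates 1 to 5 and in 49.6, 59.9, 51.7, 47.0 and 31.0% in AM6545 replicates 1 to 5. AM6545 replicate 5 was the lowest and AM6545 replicate 2 the highest of the 10. The means were 51.7 ± 6.21% and 47.8 ± 10.6% (SD, n = 5 each, exact permutation p 0.508). The annotated transcripts with the pair have 11807 and 4359 bases and those without it 4272 and 3013 bases. A share per length thus gives more weight to the class without the pair. In vehicle replicate 1, Nlgn1-203, which lacks the pair, was at 0 counts. Nlgn1-201, which carries it, was at 47.9 counts there, against 372 to 519 in the other vehicle libraries.

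For Nlgn3, any insert A was included in 88.8, 77.7, 77.4, 74.1 and 72.4% in vehicle replicates 1 to 5 and in 73.7, 86.1, 80.5, 75.9 and 81.2% in AM6545 replicates 1 to 5. The means were 78.1 ± 6.40% and 79.5 ± 4.85% (SD, n = 5 each, exact permutation p 0.698). Transcripts with both tandem exons made up 10.2 ± 3.14% and 9.90 ± 4.42%, and the rest carried the downstream exon alone. No annotated transcript carries the upstream exon alone, so that form is at 0 by construction. The form without insert A is represented by a single annotated transcript of 1852 bases that is cut short at its 3′ end, and a share per length gives such a short transcript more weight.

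Over the 6 shares tested, the Benjamini-Hochberg adjusted p was 0.698 for each, from exact permutation tests over all arrangements of the libraries. The smallest p this design can give is 0.00794. The sign of the difference turned for 4 of the 6 shares when a single library was left out. Without vehicle replicate 3 it turned for the Nrxn3 beta share (from 1.49 to -0.21 percentage points) and Nrxn3 splice site 4 (from -0.92 to 0.30). Without AM6545 replicate 5 it turned for the Nlgn1 inserts (from -3.86 to 0.35), and without AM6545 replicate 2 (-0.24) or vehicle replicate 5 (-0.00089) for Nlgn3 insert A, from 1.42.

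The known partners of these families were described from a list of 68 genes, of which 67 passed the filter on low counts and Nxph4 did not. None passed the test, with 0 of 67 at an adjusted p under 0.05 (edgeR's quasi-likelihood test). Of the 67, 37 had a log2 fold change above 0, or 55.2% against 48.1% of all genes, and their median was 0.016. At an unadjusted p under 0.05 there was 1 gene of 67, or 1.49% against 1.88% of all genes. This was Ntng1, which encodes the netrin-G1 adhesion protein. It was at 24.6, 28.1, 26.2, 28.1 and 32.4 CPM in vehicle replicates 1 to 5 and at 31.5, 33.4, 36.4, 33.8 and 27.6 CPM in AM6545 replicates 1 to 5. In AM6545, 3 of 5 libraries were above the highest vehicle library, and the log2 fold change was 0.22 (SE 0.10) with an adjusted p of 0.99983 by edgeR's quasi-likelihood test.

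By role, the 21 tested neurexin ligands and adaptors had a median log2 fold change of -0.021 with 10 above 0. Cbln2, a cerebellin that joins neurexins with the splice site 4 exon to receptors across the cleft, was at 12.2 ± 1.84 CPM in vehicle libraries and 11.3 ± 0.636 CPM in AM6545 libraries (log2 fold change -0.10, SE 0.12). Of 9 neuroligin regulators and scaffolds, which include Mdga1, Dlg4 and Gphn, 8 were above 0, or 88.9% against 48.1% of all genes. Their median was 0.063, and 0 of 9 had an unadjusted p under 0.05 (edgeR's quasi-likelihood test). The log2 fold changes were 0.016 (SE 0.15) for Mdga1, 0.11 (SE 0.099) for Dlg4 and 0.15 (SE 0.12) for Gphn. Of the 3 LRRTM heparan sulfate partners 2 were above 0, with a median of 0.062, the log2 fold changes being 0.24 (SE 0.16) for the glypican Gpc3 and 0.062 (SE 0.12) for the receptor phosphatase Ptprs. Gpc4, a glypican bound by LRRTM4, was at 49.5 ± 8.97 and 47.3 ± 6.52 CPM (log2 fold change -0.067, SE 0.13).

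The Khdrbs genes encode RNA-binding proteins (SAM68, SLM1 and SLM2) that promote skipping of the splice site 4 exon. Khdrbs1 was at 115 ± 20.03 CPM in vehicle libraries and 132 ± 18.3 CPM in AM6545 libraries, a log2 fold change of 0.20 (SE 0.13). Khdrbs2, at 19.4 ± 3.89 and 19.8 ± 3.68 CPM, and Khdrbs3, at 395 ± 34.5 and 391 ± 43.1 CPM, had log2 fold changes of 0.030 (SE 0.15) and -0.014 (SE 0.10). The 3 sheddases, which cut adhesion proteins from the membrane, had a median of 0.0011, and the 20 genes of other synaptic adhesion families a median of -0.014.

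The alpha-catenin genes that host 3 of the LRRTM genes were not called. Ctnna1 was at 57.9 ± 6.97 CPM in vehicle libraries and 61.0 ± 3.49 CPM in AM6545 libraries (log2 fold change 0.076, SE 0.099), next to -0.087 for Lrrtm2 within it. Ctnna2 was at 63.2 ± 9.59 and 71.5 ± 8.13 CPM (0.18, SE 0.12), with 3 of 5 AM6545 libraries above all vehicle libraries, next to -0.12 for Lrrtm1 within it. Ctnna3 was at 0.839 ± 0.200 and 0.865 ± 0.211 CPM (0.064, SE 0.28), next to 0.041 for Lrrtm3 within it.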

How the data were processed

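Total RNA of hippocampal synaptoneurosomes was turned into 10 libraries with a SMARTer kit for small inputs, per the labels' protocols. The values the authors deposited are estimated counts, in separate tables for genes and transcripts. Salmon 1.5.2 and mm10 are named in the submitters' processing notes. The annotation release and the use of strand are not given in the sources used here. All 61 transcript identifiers of these genes were 1 version later than in GENCODE M21, which supplied names, lengths, exons and sequences.

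Estimated counts were rounded and tested in edgeR 4.0.16 with TMM scaling, filterByExpr (minimum count 10), robust quasi-likelihood dispersions, group as the sole term and a Benjamini-Hochberg threshold of 0.05 over all genes or transcripts. CPM is scaled by TMM. TPM used the 99.28% of transcript counts with an annotated length. Shares were tested by two-sided exact permutation. The scripts were tested on simulated data.

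The genes, partner lists and rules were chosen with earlier results of these data known. Named were all 8 genes, partner genes at an unadjusted p under 0.05 (at most 8), Ctnna1 to Ctnna3, Khdrbs1 to Khdrbs3, Cbln2 and Gpc4, and for each gene the 2 transcripts of highest mean count plus up to 3 per direction at an unadjusted p under 0.05. Other partners named as examples, and Ntng2, were chosen after their values were seen. Alternatives were RLE and total count scaling, DESeq2, limma-voom with quality weights, a filter of at least 10 counts in every library, no filter, a replicate block and leaving out each library. The spread without vehicle replicate 1 and the scales on which libraries were examined were added after seeing the data.
Some items are not reported here.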

Additional observations from a re-analysis of the deposited data

Results flagged for a closer look

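Vehicle replicate 1 lay far below the other 4 vehicle libraries in TPM for 3 genes. Nrxn3 was at 37.1 TPM there against 48.1 to 51.4 TPM in the others, Nlgn1 at 12.7 TPM against 25.9 to 31.1 TPM and Nlgn3 at 21.6 TPM against 35.2 to 37.8 TPM. The gap to the nearest library was 0.772, 0.716 and 0.841 of the group's range, above Dixon's 95% limit of 0.71. These were 3 of 44 groups of 5 values examined, in CPM, TPM and shares, where chance alone gives about 2.2. The result depends on the scale. Of the 16 groups of gene levels, 0 passed the limit in CPM, 1 in log2 CPM (Nlgn1 in vehicle, 0.736, against 0.681 in CPM) and 3 in TPM. For Nrxn3, vehicle replicate 1 (150 CPM) was above vehicle replicate 2 (145 CPM). TPM also rests on how reads were divided among transcripts of different length. In vehicle replicate 1 Nlgn1-203 was at 0 counts. Nlgn3-203 was at 54.2 counts there, against 148 to 226 in the other vehicle libraries. The part of these transcripts in the TPM values was not tested.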

How the results depend on the processing

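None of the 8 genes, the 16 named transcripts or the 6 shares passed its threshold under any alternative run, with lowest adjusted p-values of 0.9151 (edgeR, DESeq2 or limma-voom), 0.9997 (edgeR or DESeq2) and 0.4524 (exact permutation). For the shares, the replicate block could not pass whatever the values, as the smallest p of an exact permutation within pairs is 0.0625. The directions of genes, transcripts and shares were less stable. Of 136 alternative gene values 15 changed sign, as did 33 of 222 for transcripts and 5 of 78 for shares. With limma-voom and sample quality weights the log2 fold change was 0.021 for Nrxn2 and -0.034 for Lrrtm4, and 1 of all genes was called. Total count scaling gave 0.0018 for Lrrtm4-201. Of all transcripts, 11 were called by DESeq2 and 0 with at least 10 counts in every library, a filter that left no value for Lrrtm2-203 and Lrrtm3-204.

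With the number as a replicate block, 0 transcripts were called, and the log2 fold change was 0.013 for Nlgn1, 0.15 for Nlgn1-201, 0.30 for Lrrtm2-203 and 0.0097 for Lrrtm4-201. Deviations of same-numbered libraries correlated at -0.14, -0.186, 0.232, 0.393 and 0.065 for numbers 1 to 5, and 3 of 5 numbers correlated best with their own. As not every correlation was over 0.1, the numbers were not taken to pair the libraries. Whether a number marks a shared animal, litter or day is not given in the labels.

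Leaving out 1 library at a time gave 0 to 1 called genes (1 without vehicle replicate 3 or AM6545 replicate 3) and 0 to 4 called transcripts (4 without AM6545 replicate 3, 2 without replicate 2 of either group, 1 with all libraries and 0 without any of the others). Among genes that kept their sign, log2 fold changes ranged from -0.093 to -0.0093 for Nrxn3, -0.18 to -0.073 for Lrrtm1, -0.17 to -0.032 for Lrrtm2 and 0.010 to 0.071 for Lrrtm3. The others ranged from -0.077 to 0.052 for Nrxn2, -0.12 to 0.050 for Nlgn1, -0.098 to 0.031 for Nlgn3 and -0.051 to 0.069 for Lrrtm4. For transcripts they ranged from -0.064 to 0.064 for Nrxn3-208, -0.29 to 0.19 for Nlgn1-201, -0.087 to 0.099 for Nlgn3-201 and -0.30 to 0.12 for Nlgn3-206. They also ranged from -0.060 to 0.14 for Lrrtm1-203, -0.37 to 0.34 for Lrrtm2-203, -0.093 to 0.054 for Lrrtm4-201 and -0.048 to 0.13 for Lrrtm4-208. Differences in share ranged from -0.21 to 2.99 percentage points for Nrxn3 beta, -1.83 to 0.30 for Nrxn3 splice site 4, -6.89 to 0.35 for Nlgn1 inserts and -0.24 to 4.10 for Nlgn3 insert A. They kept their sign for Nrxn2 beta (1.87 to 6.26) and Nrxn2 splice site 4 (2.29 to 6.02). The cause of these changes was not tested. Estimates that divide reads among transcripts carry an error that the tables do not hold.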

Other observations

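Lrrtm4 is annotated with a long and a short coding form that differ in coding length. The long form made up 34.8 to 43.9% of the classed Lrrtm4 forms per length in vehicle libraries and 37.2 to 47.4% in AM6545 libraries, with means of 41.0 ± 3.63% and 42.2 ± 4.29% (SD, n = 5 each).

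For each of the 8 genes, the gene with the most similar profile over the 10 libraries was found among 14358 by the root mean square difference of centred log2 CPM. This was Pxdc1 for Nrxn2 (0.0697), Kcnn2, a calcium-activated potassium channel, for Nrxn3 (0.0462) and Sv2b, a synaptic vesicle glycoprotein, for Nlgn1 (0.0513). It was Tm9sf2 for Nlgn3 (0.0365), St6galnac5 for Lrrtm1 (0.0558), Ltk for Lrrtm2 (0.0627), Cd99l2 for Lrrtm3 (0.0315) and Cnnm1 for Lrrtm4 (0.0365). Among the 8 genes themselves, the closest profiles were those of Nrxn3 and Lrrtm1 (0.0729), followed by Lrrtm3 and Lrrtm4 (0.102) and by Nlgn1 and Nlgn3 (0.108). This difference is not scaled by a gene's own spread, so genes that vary little lie close to many others. The value for Lrrtm3 and Lrrtm4 was above the SD of Lrrtm3 itself (0.0865). That for Nlgn1 and Nlgn3 was below the SD of each (0.23 and 0.174), as was that for Nrxn3 and Lrrtm1 (0.123 and 0.148). The 10 points share their libraries and their scaling.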
